A study of Mus musculus with 6 samples.

Results

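The baseline transcriptome of the wild-type mouse whisker pad at E12.5, mid-gestation, was described from 3 of the 6 Affymetrix MOE430A arrays of the series, those titled as wild-type whisker pad, each from a separate embryo per the study's design text. The whisker pad is the facial skin that forms the vibrissae, and the series was made to look for transcriptional targets of Trps1, a GATA-type zinc finger factor of mesenchyme and hair follicle. The 3 embryos share genotype (wild-type), age (E12.5), tissue (the whole dissected pad, so epithelium, dermis, vessels, nerves and blood together) and molecule (total RNA, hybridised as biotin-labelled cRNA). The other 3 arrays, of homozygous Trps1 mutants, were not used. Strain and sex are not among the labels, and dissection of a whole pad limits the data as a model of any single cell type, since fewer cells of a type and less RNA per cell cannot be told apart in such samples.

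At this stage facial skin consists of a thin surface epithelium, with keratinocyte precursors below a flat outer periderm, over a mesenchyme derived largely from the cranial neural crest. Vibrissa follicles begin as placodes, epithelial thickenings that signal through Wnt, Eda and hedgehog proteins to condensing dermal cells beneath them. Embryonic red cells, made first in the yolk sac, circulate through the tissue and carry globins that are later replaced by the adult forms.

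Each value is a probe set's signal, a linear array intensity in arbitrary units. Probe sets bind with different strengths, so the order of signals between genes is an order of brightness on these arrays, not of transcript number. Each array carried its own references. The 27 probe sets for Bacillus subtilis transcripts (Dap, Lys, Phe, Thr and Trpn) gave 0.4 to 25.8 in embryo 1, 0.6 to 29.7 in embryo 2 and 0.8 to 26.2 in embryo 3, and the highest of them on an array served as its background limit. The spiked hybridisation controls were far brighter, with means over the 3 arrays of 183 for BioB, 610 for BioC, 2324 for BioD and 8517 for Cre. A gene is called above background where its probe set exceeded that limit on all 3 arrays, and within background where it did so on 0 of them. These are descriptions of 1 group of 3 embryos, and no test was made.

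Promoters of 3 of the bright genes described below are shown first, because they carry short elements, written here in capitals, near the annotated start. Each runs from 100 bases before to 50 bases from the start, 5′ to 3′ on the gene's strand (RefSeq, GRCm38.p6). Hba-x and Hbb-y encode the embryonic zeta and epsilon-y globin chains, and Krt5 encodes the type II keratin of basal epidermis. They lie at chr11:32276500-32276649 on the plus strand (Hba-x), chr7:103853158-103853307 on the minus strand (Hbb-y) and chr15:101712856-101713005 on the minus strand (Krt5).
Hba-x: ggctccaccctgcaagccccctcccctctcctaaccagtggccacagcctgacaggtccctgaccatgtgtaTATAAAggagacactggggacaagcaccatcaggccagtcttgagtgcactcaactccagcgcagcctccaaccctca
Hbb-y: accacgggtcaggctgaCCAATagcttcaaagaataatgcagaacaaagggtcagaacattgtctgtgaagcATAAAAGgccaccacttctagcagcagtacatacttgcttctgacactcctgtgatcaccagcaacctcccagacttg
Krt5: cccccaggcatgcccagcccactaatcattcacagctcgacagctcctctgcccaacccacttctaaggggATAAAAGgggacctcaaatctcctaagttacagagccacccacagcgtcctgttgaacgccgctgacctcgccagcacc

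The capitals mark TATAAA 28 bases before the start of Hba-x, ATAAAAG 28 bases and CCAAT 83 bases before that of Hbb-y, and ATAAAAG 29 bases before that of Krt5. TATAAA and ATAAAAG are forms of the TATA box and share most of their letters, so 1 site can match both. The third element, CCAAT, is known by its letters as the CCAAT box. Searched on both strands over 300 bases of each of the 32851 RefSeq promoters, TATAAA was held by 13.6%, ATAAAAG by 5.42% and CCAAT by 37.4%. Among the 102 promoters of the 81 matched genes of the 100 brightest, TATAAA was held by 13.7%, ATAAAAG by 6.86% and CCAAT by 42.2%. CACGTG, the E-box core, was held by 14.7% of them and by 7.15% of all promoters, and CACCC, a core bound by Klf factors, by 53.9% and 57.5%. Matches to CACCC in the sequences above, in Hba-x and Krt5, are left in lower case. Over the 12566 promoters of the 9887 matched measured genes, the shares were 9.81% for TATAAA, 4.08% for ATAAAAG, 37.1% for CCAAT, 9.11% for CACGTG and 63.5% for CACCC. Genes within background had 1494 promoters (1253 matched genes). Of these, 17.9% held TATAAA and 7.7% ATAAAAG, both higher shares than among the 100 brightest genes. CCAAT was held by 38.3% of them, CACGTG by 7.3% and CACCC by 63.7%. A match is a description of the letters only.

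The 3 arrays were alike in the middle of their scale, with median signals of 95.7, 96.1 and 95.2, and 75.8%, 73.9% and 77.1% of their probe sets exceeded the array's background limit. They differed at the bright end, where the highest signals were 14473, 17036 and 22363. The beta-actin controls of the array averaged 9966, 11967 and 14004, but the spiked Cre control did not rise, at 8703, 8584 and 8264. How this bears on bright genes that were highest in embryo 3 was not tested. Embryo 3 stood somewhat apart. Its log2 signals correlated at r = 0.966 with those of either other embryo, against 0.978 between embryos 1 and 2 (across 22626 probe sets, which are not independent). It also differed in the sex-linked transcripts, as detailed below, and the effect of leaving it out is given below.

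Of the 22626 mouse probe sets, 15418 (68.1%) exceeded the background limit on all 3 arrays, 3392 (15%) on 1 or 2 arrays and 3816 (16.9%) on 0 arrays. The median of the mean signals was 95.8, 25% of probe sets lay below 28.8 and the brightest 1% above 4986. Signal was concentrated: the 10 brightest probe sets held 1.88% of the summed signal, the 100 brightest 13.5% and the 1000 brightest 48.2%. Against the spiked ladder, 35.4% of mouse probe sets were brighter than BioB, 12.6% brighter than BioC, 2.62% brighter than BioD and 0.473% brighter than Cre. Probe sets annotated to a single gene covered 12393 genes, each represented by its brightest probe set. Of these genes, 9017 were above background (72.8% of the genes) and 1650 within it (13.3%), with a median signal of 122.1 over all of them. Without embryo 3, 15956 probe sets and 9249 genes exceeded the limit on both remaining arrays. Of the 66 gene lists and families described below, 42 kept their number of members above background when embryo 3 was left out, 17 gained 1 and 7 gained 2 or more, the most being 7 of the 262 solute carriers.

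**Figure D1:**
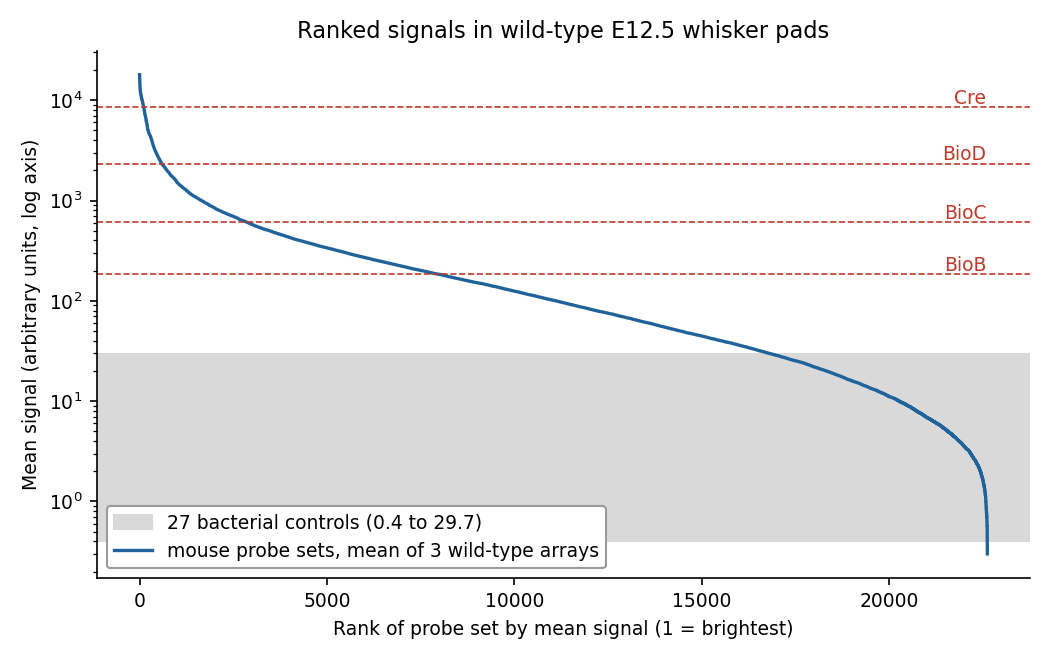
Mean signal over the 3 wild-type arrays (log axis, arbitrary units) of 22626 mouse probe sets, ranked from brightest to dimmest. The grey band spans the 27 bacterial controls (0.4 to 29.7) and the dashed lines give the means of the spiked controls, from BioB at 183 to Cre at 8517. The curve enters the band in the dimmer part of the ranking, and only the brightest probe sets exceed Cre.

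Of the 100 brightest probe sets, 40 were annotated to 1 gene, 46 to several and 14 were not listed. Only those annotated to 1 gene entered the ranking of genes, so it leaves out most of the brightest probe sets. Among the genes so ranked, the brightest was Rpl41, a small protein of the large ribosomal subunit. Its signals were 14083.4, 16004.8 and 18889.1 in embryos 1, 2 and 3 (mean 16326 ± 2419, SD, n = 3). Eef1a1, which delivers aminoacyl-tRNA to the ribosome, followed with 14473.2, 15108.6 and 17091.2 (15558 ± 1366). Tpt1, the translationally controlled tumor protein, gave 13571.1, 14101 and 16188.6. The actin-sequestering peptide gene Tmsb10 gave 12855.7, 14550.2 and 16165.6, and Actb, cytoplasmic beta-actin, gave 11447.8, 13766.9 and 15611.1. All 5 were highest in embryo 3 and lowest in embryo 1, and their ranges overlapped. Lgals1, a secreted galactose-binding lectin abundant in mesenchyme, came sixth and varied little, with 13092.1, 13544.9 and 13869. Of the 29 neighbouring pairs among the 30 brightest genes, 0 had ranges that did not overlap, and 3 had the same order in all 3 embryos, so the order within this group is not resolved by 3 embryos. Membership was steadier, with 83 of the 100 brightest genes also among the 100 brightest of each array taken alone. Of these 100 genes, 78 were highest in embryo 3 and 69 lowest in embryo 1, while over all genes above background 3901 of 9017 were highest in embryo 3.

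Ribosomal proteins made up the largest block of the brightest genes. Of 47 measured cytosolic ribosomal protein genes, 35 were among the 100 brightest and 46 were above background, with a median signal of 8368 against 122.1 over all genes. After Rpl41 the brightest were Rpl4, Rps29, Rpl7a and Rps3a1, and Rps29 gave 10572.2, 11278.2 and 14562.1. Rpl10a was among the steadiest, at 7293, 7212.4 and 7332 in the 3 embryos. The exception within background was Rpl3l, a variant of Rpl3 typical of striated muscle, with 4.4, 7.2 and 2.5. Members of the same particle differed widely in signal, since Rps27 gave 112.4, 149.6 and 95 and Rpl39 gave 126, 230.4 and 216.9.

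Other housekeeping families followed. The 18 heterogeneous nuclear ribonucleoproteins, which package and splice nascent RNA, were all above background with a median of 2095, led by Hnrnpab at 6637.7, 7220.4 and 6863.4. Of 84 oxidative phosphorylation subunits, 81 were above background (median 1504), led by Uqcrb of respiratory complex III at 6874.6, 7740.4 and 8956.9. Of 39 proteasome subunits, 36 were above background (median 1500), led by Psmb7, a catalytic subunit of the core particle, at 5007.7, 4780.8 and 5582.5. The immunoproteasome subunit Psmb8, which replaces Psmb5 after interferon, was within background at 6.5, 3.1 and 3.5. Translation elongation and initiation factors, with 50 of 52 members above background, had a median of 959. The brightest 10% of genes (1240 genes) held 14 of the 18 ribonucleoproteins, 65 of the 84 respiratory subunits, 30 of the 39 proteasome subunits and 29 of the 52 translation factors.

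The cytoskeleton was bright through few members. Among 14 tubulins, Tubb5 gave 7568.2, 7962.2 and 8657.7 and Tuba1a, the main alpha-tubulin of dividing and young neural cells, gave 6111.9, 7067.3 and 8581.2, while the median of the family was 207. Among 6 actins, Actb and Actg1 (10023.2, 11248.7 and 13680.1) stood far above Acta2, smooth muscle actin, at 169.4, 210.4 and 334.7. All 6 actins were highest in embryo 3, against 5379 of 12393 over all genes. Their mean log2 deviation from the 3-embryo mean was 0.40 in embryo 3, -0.31 in embryo 1 and -0.09 in embryo 2. Vim, the intermediate filament of mesenchymal cells, gave 7142.4, 7396.1 and 8596.3.

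Proliferation genes were bright as a group. Of 39 cell cycle and DNA replication genes, 38 were above background and 26 belonged to the brightest 10% of genes, with a median signal of 1034. Tubb5 led this list too, ahead of Stmn1, which destabilises microtubules, and Pcna, the sliding clamp of DNA polymerase, gave 4501.6, 4868.1 and 6137.3. Ccnd2, a D-type cyclin, gave 3415.9, 3723.5 and 3415.3, and its partner kinase Cdk4 gave 2578.4, 2872.8 and 3148.4. The list varied little between embryos, with a median coefficient of variation (SD over mean) of 8.31%. That is near the 9.71% of all genes above background with signals between 1000 and 2000. Its single member not above background was Tyms, thymidylate synthase, at 32.2, 29.1 and 33.3, which exceeded the limit on 2 arrays.

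Imprinted growth genes, expressed from 1 parental allele and known for high levels in embryonic mesenchyme, were above background in 16 of 19 members and among the brightest 10% of genes in 10, with a median of 805. The median of the list stood at percentile 90.1 of all genes. It stood at 78.5 with the median over a gene's probe sets, and at 75.4 without probe sets shared between transcripts. Gnas, the stimulatory G protein locus, gave 4724.1, 4693.3 and 4218.3. Grb10, an adaptor that restrains growth, gave 3654.4, 3638.9 and 3397.4, and Igf2, the fetal growth factor, gave 3224.8, 2952.4 and 3336.9. Mest followed with 3387.3, 2950.4 and 2958.1, ahead of Plagl1 and Nnat. Peg10, needed for the placenta, was within background at 14.5, 3.1 and 23.8, as was Snrpn at 5.9, 23.3 and 20.5. Probe sets annotated to several genes were left out, so these values rest on probe sets named to 1 gene. Values of this list in the 3 embryos were close, with a median coefficient of variation of 8.9%. Over all genes above background with signals between 500 and 1000 it was 10.5%. Among insulin-like growth factors and their binding proteins, 10 of 11 were above background.

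Glycolysis (14 of 15 above background, median 740) was led by Pgk1, at 3319.9, 4372.4 and 3961.9, and Ldha, lactate dehydrogenase A, at 2249.5, 2877.9 and 2673.5. Both are also targets of the hypoxia factor, whose subunit gene Hif1a gave 1066.2, 1172.8 and 1197.8. Adm, another hypoxia target, was within background at 3.1, 14.3 and 3.2. Immediate early genes, which rise within minutes of handling or stimulation, were near the middle of all genes, with a median of 99. Jund was the brightest at 593.2, 679.9 and 743.7, while Fos gave 68, 72.5 and 120.8 and Egr1 gave 130.6, 121.8 and 193.7.

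**Figure D2:**
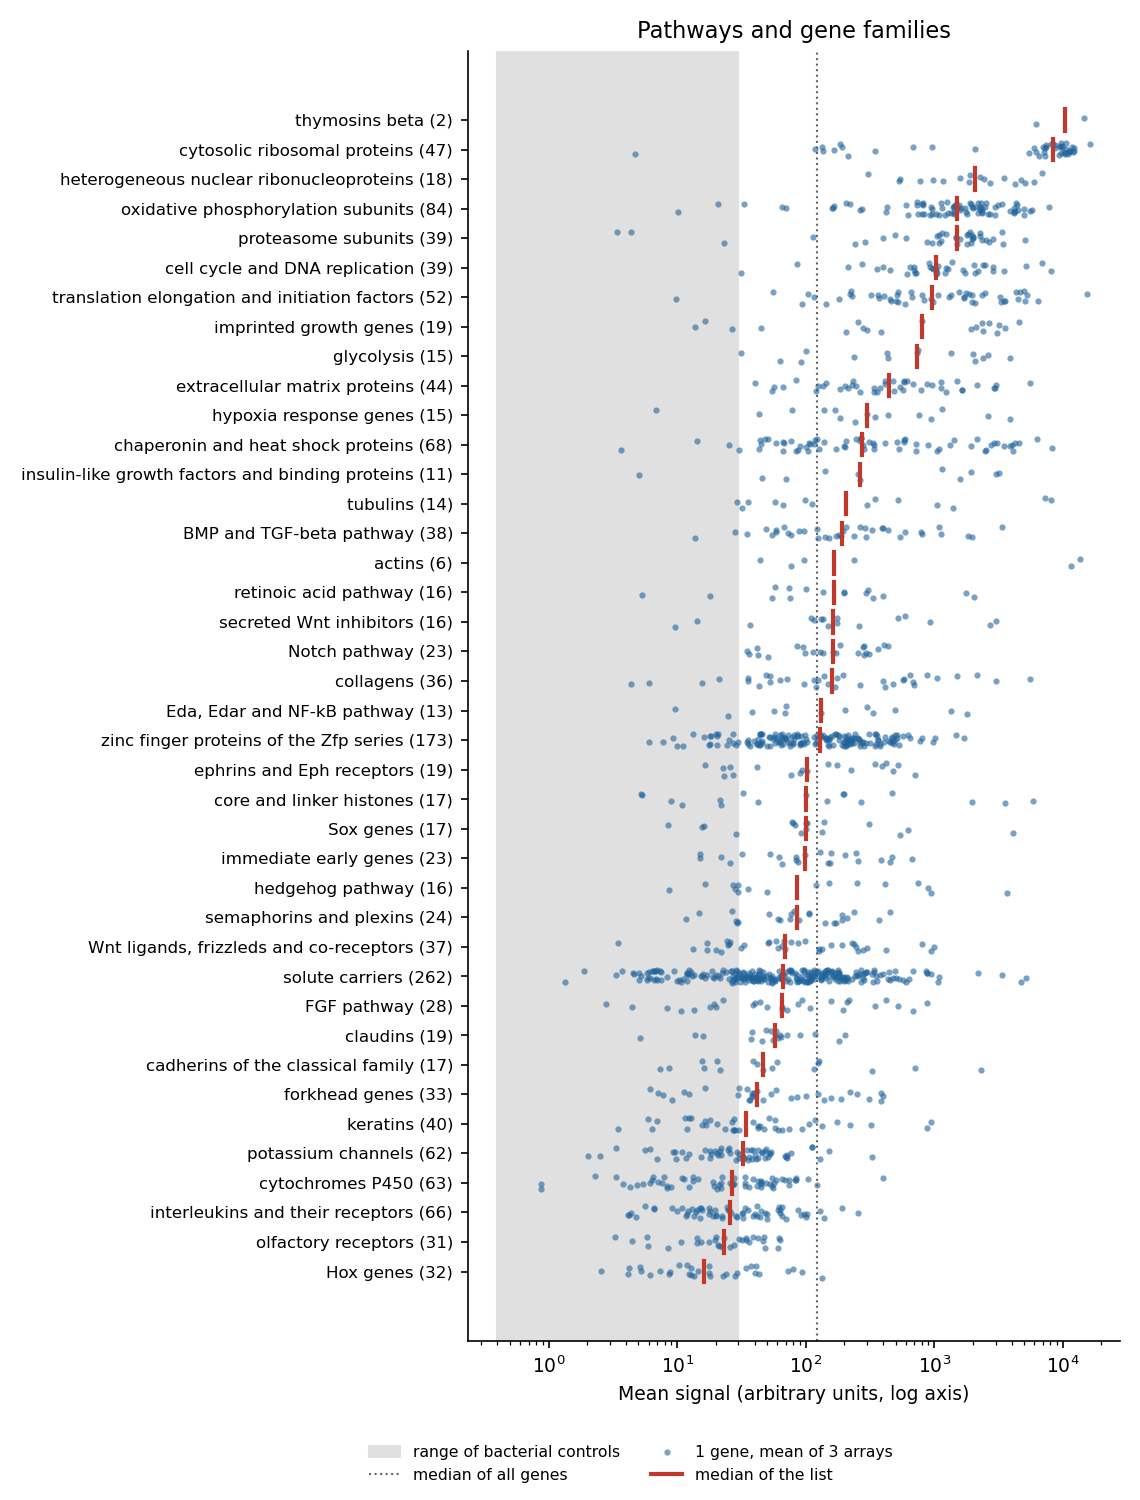
Mean signal of each measured gene (1 blue point, log axis, arbitrary units) in 14 pathways and 26 gene families, ordered by the median of the list (red bar), with the number of genes in brackets. The grey band is the range of the bacterial controls and the dotted line the median of all genes at 122.1. Thymosins beta and ribosomal proteins lie at the top, and Hox genes, olfactory receptors, interleukins and cytochromes P450 have their medians inside the band.

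Counts of list members here and below compare with 72.8% of all genes above background and 13.3% within it. The tissue label was set against markers of 17 cell types. Facial dermal mesenchyme was the brightest of them, with 21 of 23 markers above background, 0 within it and a median of 623, which placed its median member at percentile 86.2 of all genes. Col3a1, a fibrillar collagen of loose connective tissue, gave 5445.2, 5574.3 and 5678 (5566 ± 117). Col1a2 gave 3006.6, 3149.8 and 2965.1, and Cdh11, the cadherin of mesenchyme, gave 2855.5, 2371.9 and 1736.2, highest in embryo 1 and lowest in embryo 3. The collagens differed between embryos by a few percent, Cdh11 by more. Twist2 (2642.5, 1886.5 and 2150.2) and Prrx1 (2226.4, 1907.6 and 2490.6), transcription factors of dermal and craniofacial mesenchyme, were of like brightness. Crabp2, which carries retinoic acid to its receptors, gave 1741.3, 2050.7 and 2289.5. Dpt, dermatopontin, typical of mature dermis, was at 33.1, 37.2 and 9.2.

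Matrix genes more widely were bright, with 43 of 44 extracellular matrix genes above background and a median of 446. Among 36 collagens 29 were above background. Col10a1, the collagen of hypertrophic cartilage, was within background at 4.6, 6.8 and 6.8.

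Of 31 craniofacial mesenchyme transcription factors, 26 were above background (median 177). Msx1, which sets proliferation and fate in facial mesenchyme, gave 531.2, 804.2 and 230.1, and Tbx15, a T-box factor of dermis, gave 784.8, 329.7 and 248. Both differed widely between embryos, and in different ways. The factors within background were Dlx6 (5.8, 16.2 and 9.6), Hand2 (7.2, 5.5 and 2.4) and Gbx2 (1.8, 6.3 and 22.5). Dlx6 and Hand2 mark the lower jaw in the mouse. The Hox genes, which pattern the trunk and hindbrain and are known to be silent in the neural crest of the upper face, were the dimmest of the 26 families, with 6 of 32 above background, 17 within it and a median of 16.2. Hoxa2 was at 6.3, 5.4 and 14.1. The 6 above background were Hoxa9 (152.6, 140.4 and 108.7), Hoxc6, Hoxd1, Hoxd8, Hoxb4 and Hoxb7 (37.5, 41 and 41.7).

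Trps1, the factor the series is about, was at 807.6, 1061.4 and 748.1 in the 3 wild-type embryos (872 ± 166, SD, n = 3), percentile 91.0 of all genes. It is one of 18 dermal condensate markers, of which 17 were above background, 0 within it, with a median of 257. Vcan, the proteoglycan versican of condensing dermis, gave 933, 955 and 984.1. Ptch1, the hedgehog receptor and itself a target of the pathway, gave 1291, 721 and 802.2, and Sox18, shared with endothelium, gave 767.5, 594.3 and 517.5. Embryo 1 was the highest in 9 of the 18, against 3541 of 12393 over all genes, and exceeded embryo 2 in 12, against 6090 of 12393. Bmp4, a mesenchymal signal to the placode, gave 545.1, 772.7 and 456.5, while Prdm1 was steady at 308.5, 284.3 and 293.2. The 1 member not above background on all arrays was Alx4, at 28.2, 20.1 and 43.4. The list's median stood at percentile 67.8 of all genes, and at 60.2 without embryo 1.

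Basal epidermis had 23 of 25 markers above background, 0 within it, and a median of 161. Krt5 and its partner Krt14, the keratin pair of basal cells, gave 1282.6, 721.7 and 831.5 (945 ± 297) and 1212.6, 673.3 and 765.3 (884 ± 288). Dsp, the desmosomal plaque protein, gave 678.7, 343.2 and 328.8, and Trp63, the factor that establishes stratified epithelium, gave 465.8, 458.6 and 311.3. Embryo 1 was highest in 18 of the 25 markers, against 3541 of 12393 over all genes. Without embryo 3, 20 of the 25 were higher in embryo 1 than in embryo 2, against 6090 of 12393. Among the others were Itga6 (374.7, 398.7 and 430.8) and Grhl2. The summed signal of the list was 7777 in embryo 1, 5714 in embryo 2 and 5384 in embryo 3. Whether the share of epithelium in the dissected pads differed was not tested.

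Placode and follicle epithelium was dimmer, with 15 of 19 markers above background (78.9%, against 72.8% of all genes), 2 within it and a median of 91.5. The brightest was Ctnnb1, beta-catenin, which all cells use, at 7512.5, 7151.1 and 7387.1. Sostdc1, a secreted Wnt and BMP modulator around placodes, gave 798.4, 448.2 and 312.8, and Lef1, the nuclear partner of beta-catenin, gave 475.9, 300.6 and 112. Dkk4, a Wnt target of placodes, ran the other way at 83.8, 115.2 and 133.5. Placode genes known from their pattern in situ were at or near background: Shh at 7.5, 14.7 and 3.9, Fgf20 at 15.1, 3.5 and 13.8, and Edar at 9.6, 55.3 and 9.8. A value within background says that the probe set gave no more signal than the bacterial controls in RNA of the whole pad, not that the gene is off in placodes. Periderm was the second dimmest of the 17 cell types, with 4 of 10 markers above background and a median of 25.9. Ppl, periplakin, was its brightest at 111, 71.7 and 108.3, and Krt13 (7.3, 5.3 and 6.7) and Krt23 (3.4, 2.6 and 4.5) were within background.

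Of 40 keratins 20 were above background and 11 within it, and Krt5 and Krt14 were brighter on every array than Krt15 (447.6, 268.8 and 247.5), the next. Krt8 and Krt18, of simple epithelia, gave 113.2, 122.3 and 119.4 and 149.6, 147 and 108.5. Markers of late epidermis and the hair shaft, which form after this stage, had a median of 27.7. Of their 17 members 7 were above background, among them Krt10 at 229.2, 209.3 and 227.6, while Flg (8.1, 14.1 and 15) and Ivl (1.4, 1.7 and 2) were within it.

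Among cell-type markers measured by probe sets of a single gene, the embryonic globins Hbb-y and Hba-x were the brightest. Hbb-y gave 10856.6, 11961.6 and 12153.1 (11657 ± 700), Hba-x gave 9779.6, 10832.6 and 11309.5 (10641 ± 783), and Hbb-bh1 gave 4089, 4743.5 and 6061.4 (4965 ± 1005). All 3 are embryonic forms. These probe sets were lowest in embryo 1 and highest in embryo 3, but the other probe sets of Hbb-y were not in that order, at 11070.6, 10239.6 and 12049.3 and at 10050.5, 11929.1 and 11052.9. The adult form Hbb-b2 gave 81.7, 63.2 and 61.1, and Hba-a1 was at 38.5, 6.6 and 45.4. Probe sets annotated to several globin genes were left out, so the adult values rest on the probe sets named to 1 gene. Beyond the globins, the erythroid markers were moderate, with Alas2, the heme synthesis enzyme of red cells, at 318.6, 321.5 and 200.7 and Gata1, their master factor, at 53.2, 51.9 and 81.2. Of 21 erythroid markers 18 were above background and 0 within it, with a median of 146.5.

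Endothelium had 20 of 25 markers above background (80%, against 72.8% of all genes) and a median of 128. It was led by Sox18 and by Emcn, a sialomucin of capillaries and veins, at 312.6, 287 and 391. Kdr, the main VEGF receptor, gave 178.4, 181.6 and 124.5. The lymphatic factor Prox1 was within background at 7.2, 9.8 and 14.7. Macrophages and leukocytes had 14 of 22 markers above background (63.6%, below the share of all genes) with a median of 51.2. Csf1r, the growth factor receptor of macrophages, gave 165.8, 224.8 and 171.6, and Itgam was within background at 2.1, 2.7 and 2.5.

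Nerve and pigment cell markers had lower signals than those of mesenchyme. Of 32 neuronal markers 25 were above background (78.1%, against 72.8% of all genes), with a median of 61.8. Gap43, of growing axons, gave 1120.1, 989.8 and 1036, and Stmn2, a microtubule regulator of axons, gave 661.2, 622 and 652. The 3 neuronal markers within background included Snap25, of synaptic vesicle release, at 17.3, 15 and 19.4 and Nefh, the heavy neurofilament, at 3.5, 7.5 and 7.9. Schwann cell precursors (8 of 12 above background, median 89.5) were led by Ngfr, the low-affinity neurotrophin receptor, at 407.1, 352.6 and 450.9, and Erbb3 at 293.3, 263 and 269.5. Melanoblasts, the precursors of pigment cells, had 9 of 10 markers above background with a median of 76.9, among them Pmel at 109.8, 101.2 and 112.5 and Dct at 94.3, 44 and 88.9. The 10 markers lay in a narrow band between 31.2 and 116.

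Skeletal muscle was the dimmest of the 17 cell types, with 10 of 31 markers above background, 13 within it and a median of 24.8. Its bright members are shared with other cells, namely Tpm2 (475.7, 765.9 and 686.4), Mef2c (574.6, 447.2 and 361.3) and Pax3 (344.6, 424.2 and 473.4). The defining myogenic factors were Myf5 at 1.5, 0.7 and 9, Myog at 8, 14.9 and 8.1, and Myod1 at 31.6, 10.9 and 37.1. Pax7, of muscle precursors and also of facial neural crest, was above background at 66.5, 122 and 59.4. Cartilage had 14 of 23 markers above background (median 49). Col9a1 gave 502.9, 687.7 and 916.6 and Col2a1, the main collagen of cartilage, 353.8, 386.1 and 462, so both were lowest in embryo 1. Embryo 1 was the highest in 1 of the 23 markers, against 3541 of 12393 over all genes, and exceeded embryo 2 in 6, against 6090 of 12393. Bone markers (5 of 9 above background) included Sp7, the osteoblast factor, at 72.3, 96.6 and 99. Smooth muscle and pericytes had 8 of 13 above background, and Myh11 was within it at 16.7, 15.1 and 3.2. Olfactory and nasal markers had 8 of 15 above background, led by Ebf3 at 1359.2, 1218.5 and 805.6, and Omp, of mature olfactory neurons, was at 71.4, 20.7 and 50.7.

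Markers of 9 other tissues or stages served as a negative comparison. Their median percentiles ran between 6.93 and 26.3, against 18.3 to 86.2 for the 17 cell types. Intestine was lowest, with 0 of 7 markers above background, and liver had 1 of 15, Hnf4a, at 53.6, 52.9 and 81.9. Alb was at 40.8, 33.1 and 8.7 and Afp, the fetal serum protein, at 21.9, 2.5 and 27.9. Above background were also 4 of 10 pancreas, 4 of 9 kidney, 4 of 12 heart muscle and 2 of 7 lung markers. So were 3 of 14 markers of testis and germ cells, 1 of 9 of retina photoreceptors and 7 of 17 of late epidermis and hair shaft. Over all genes the share was 72.8%. A signal above background is therefore not, by itself, a sign of a cell type. Among the brighter markers were Kap (193.3, 190.3 and 90.4), a kidney androgen-regulated protein, Sst (156.6, 173.4 and 123.8), somatostatin, and Sftpb (85.8, 154.8 and 136.4), a lung surfactant protein.

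**Figure D3:**
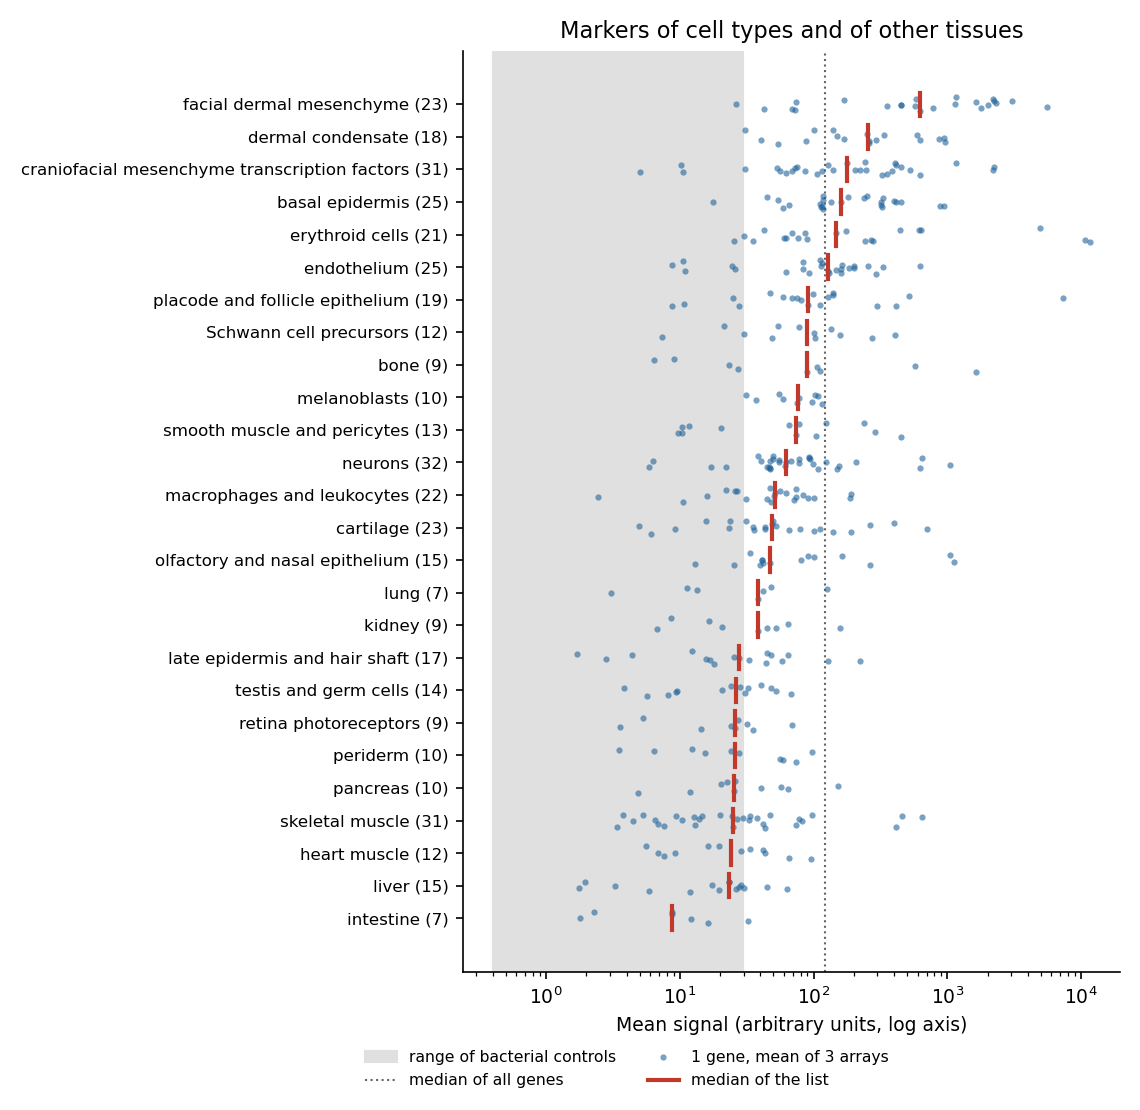
Mean signal over the 3 wild-type arrays (log axis, arbitrary units) of each marker gene (blue point) of 17 cell types and 9 other tissues or stages, ordered by list median (red bar), with the number of genes in brackets. Facial dermal mesenchyme has the highest median at 623 and intestine the lowest at 8.8, inside the grey band of bacterial controls. The erythroid list has 3 embryonic globins near the right edge, far from its other members.

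Signalling pathways of follicle formation differed in the median brightness of their lists. Among Wnt ligands, frizzleds and co-receptors, 25 of 37 were above background (67.6%, against 72.8% of all genes) with a median of 68.5. The receptor Fzd2 gave 870.7, 1008.8 and 1120.2 and the mesenchymal ligand Wnt5a gave 1135.5, 1082.5 and 596.6, lowest in embryo 3. The epidermal ligands Wnt7b (273.7, 246.2 and 248), Wnt4 (273.2, 212.4 and 229.7) and Wnt6 (272.5, 207.6 and 208) were close to each other, while Wnt8b, of the forebrain, was within background at 1.4, 3.7 and 5.4. Secreted Wnt inhibitors were brighter, with 13 of 16 above background and a median of 163. Igfbp4, which also binds insulin-like growth factors, gave 3091.9, 2881.5 and 3076.2, and Apcdd1, a membrane inhibitor of Wnt signalling, gave 3375.4, 2426.9 and 2366.6. Dkk1, which blocks Wnt co-receptors, gave 708.6, 598.2 and 455.5.

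In the BMP and TGF-beta pathway 35 of 38 genes were above background (median 192). Its brightest members were the follistatin-like gene Fstl1 (3515.5, 3525.7 and 3154.2) and the BMP targets Id2 (1805.5, 2419.9 and 1714.3), Id3 (1660.5, 1993.4 and 1831.5) and Id1 (1248.7, 1365.5 and 781.9). The receptor Bmpr1a gave 854.3, 637.2 and 869.3. In the hedgehog pathway 9 of 16 were above background. The co-receptor Gas1 gave 3295.9, 4059.4 and 3629.2, the transducer Smo 757.8, 695.6 and 774.7, and the effector Gli2 700, 827.7 and 1178, while the ligand Shh, the 1 member within background, was given above. Another 6 members exceeded the limit on 1 or 2 arrays. Without embryo 3, 11 of the 16 were above it.

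Of 28 FGF pathway genes 18 were above background (64.3%, against 72.8% of all genes), with a median of 65.3. The receptors Fgfr2 (860.6, 893.3 and 905.5) and Fgfr1 (399.8, 447.3 and 416.3) and the target Dusp6 (653.3, 628.1 and 278.8) were bright, and the ligands Fgf8 (2.4, 2.3 and 3.7) and Fgf5 (2.8, 6.1 and 4.4) were within background. Other FGF ligands lay on both sides of the limit. For Eda signalling, 11 of 13 genes were above background, mostly through general NF-kB members such as Nfkbia at 1477.3, 1760.1 and 2194.8. The pathway's own ligand Eda gave 63.7, 66 and 40 and its adaptor Edaradd 52.7, 34 and 27.5. All 23 Notch genes exceeded the background limit on at least 1 array, 20 of them on all 3, led by Rbpj, the DNA-binding effector, at 418.2, 409.1 and 475.

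In the retinoic acid pathway, 12 of 16 genes were above background (75%, against 72.8% of all genes), with a median of 167. The carriers Crabp2 and Crabp1 (1803.2, 2171.5 and 1347.8) led. The receptor Rarb, a target of retinoic acid, gave 160.2, 353.6 and 495.5, and Rarg gave 404.7, 444.4 and 343.6. Aldh1a2, the synthesising enzyme of embryonic mesenchyme, gave 110.6, 90.1 and 391.7, while Aldh1a1 was within background at 3.4, 8.4 and 4.2. Cyp26a1, which degrades retinoic acid, was at 92.8, 48.9 and 21.5. Rarb was lowest in embryo 1 and Aldh1a2 highest in embryo 3, whereas Cyp26a1 was highest in embryo 1. The median of this list stood at percentile 56.8 of all genes and at 46.9 without embryo 3.

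Of the remaining families, zinc finger genes of the Zfp series had a median of 130, close to the 122.1 of all genes. More of them were above background, 145 of 173 (83.8%, against 72.8% of all genes), and 11 were within it. Solute carriers (170 of 262 above background, median 67.1) and claudins (15 of 19, median 58) had medians below that of all genes. Sox4, a factor of progenitor cells, stood out among Sox genes at 3719, 4275.5 and 4281.5. Potassium channels (21 of 62 above background), cytochromes P450 (22 of 63) and interleukins with their receptors (23 of 66) were largely dim. Olfactory receptors, which few cells outside the nose use, had 8 of 31 above background, 9 within it and a median of 23.3, and their brightest, Olfr65, was at 69.8, 67.1 and 53.4.

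Spread between the 3 embryos differed with brightness. Over the 9017 genes above background the median coefficient of variation was 13.7%, with quartiles of 8.44% and 21.3%. It was 20.4% for genes up to a signal of 50 and 9.71% for those between 1000 and 2000. Genes with a value at or below the background limit on any array are left out, which bounds the spread of the dimmest class. The median range of log2(signal + 16) over the embryos was 0.34, and 225 genes (2.5%) had a range of at least 1. Embryo 3 was the farthest from the other 2 in 147 of those 225 (61 high, 86 low), embryo 1 in 51 and embryo 2 in 27. Over all 9017 genes, embryo 3 was the farthest in 42.5%, embryo 1 in 30.1% and embryo 2 in 27.4%. Between embryos 1 and 2 alone, 32 genes had a range of at least 1, against 151 between embryos 1 and 3 and 119 between embryos 2 and 3.

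**Figure D4:**
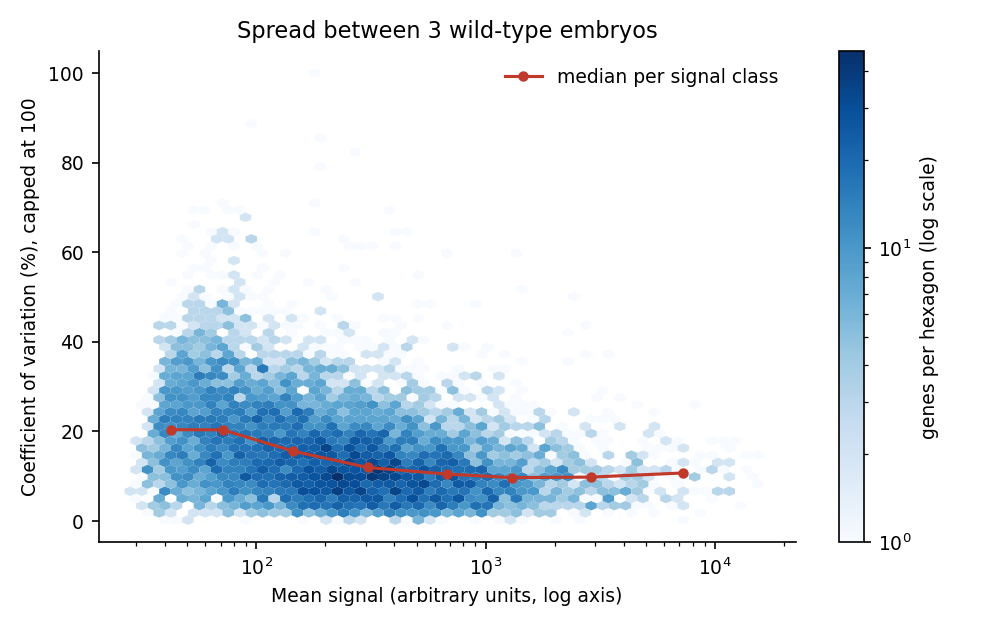
Coefficient of variation between the 3 wild-type embryos (percent, values over 100 drawn at 100) against mean signal (log axis, arbitrary units) for the 9017 genes above background. Shading counts genes per hexagon and the red line joins the medians of signal classes, which fall to 9.71% between 1000 and 2000, against 20.4% at signals up to 50. The spread of the dimmest class is bounded by the requirement to exceed the background limit on every array.

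The gene with the widest range was Xist, the RNA of the inactive X chromosome, at 49.3, 44 and 461.5. Its other probe sets followed, at 10.7, 1.8 and 300 and at 10.2, 3.7 and 40.1. The Y-linked genes ran the other way: Eif2s3y, a translation initiation subunit, gave 210.2, 207.3 and 11.9, Kdm5d, a histone demethylase, gave 160.5, 148.5 and 1.1, and Uty gave 135.7, 109.1 and 26.6. Embryo 3 thus had high Xist with these Y-linked genes at or near background, and embryos 1 and 2 the reverse. Sry, the testis-determining factor, was at 41.4, 11.6 and 9.6 and Usp9y at 22.5, 21.6 and 5.5. Tspy-ps (62.8, 56 and 74.2) and Uba1y (62.8, 28 and 47.4) did not follow this pattern, and Zfy2 was within background on all 3 arrays. With 1 embryo of this kind, sex and any other feature of embryo 3 cannot be told apart.

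Besides Xist and Ddr1, the 10 genes of widest range with embryo 3 apart were the following. Lhx8, a LIM homeodomain factor of oral mesenchyme, was at 131.2 in embryo 3, against 692 and 385.8 in embryos 1 and 2. Lef1 was at 112 in embryo 3, against 475.9 and 300.6, and Igfbp3, a binding protein of insulin-like growth factors, at 87.2, against 399.6 and 301.1. Nts, the peptide neurotensin, gave 206.1, 326 and 29.5. The transcription factor Sp3 (622.8, 486.3 and 109.2) and the splicing regulator Hnrnpl (382.7, 447.1 and 92.3) were low there too, and Rasd2, a Ras-related G protein, was high at 65, 31.1 and 193.4, with 20.2, 11.2 and 39.7 from its other probe set. Epha3, a guidance receptor, gave 286.4, 176 and 62.4, and its other probe sets kept that order at 127.9, 92.1 and 53 and at 58.8, 43.3 and 34.8. Outside these 10, and chosen after their values were seen, were Msx1 and Barx1. Msx1 was low in embryo 3 with both of its probe sets, the dimmer one at 163.5, 204.7 and 77.9. Barx1, a homeobox factor of proximal facial mesenchyme, was high in embryo 3 at 121.2, 87.1 and 322.8.

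Embryo 1 was the one apart for another set. Tbx15 was at 784.8 in it, against 329.7 and 248 in embryos 2 and 3, and its second probe set gave 415.8, 210.1 and 94.8, with embryo 1 highest but embryo 3 the farthest on the log2(signal + 16) scale. Foxd1, a forkhead factor of facial mesenchyme and dermal condensates, was at 432.7, against 178.2 and 145.1. Lrrn1, a leucine-rich repeat membrane protein, gave 491.1, 192.1 and 85.3. Shox2 (107, 45.1 and 28.5) and Hoxd1 (136.7, 40.4 and 62.4) were also high there, as was Tbx18 at 269.8, 141.2 and 97.3. Foxc2, a forkhead factor of paraxial and neural crest mesenchyme, ran the opposite way at 31.7, 78.2 and 148.2. Bmp5 gave 28.8, 121.4 and 67.2 with 1 probe set and 38, 31.4 and 34.6 with the other, so the spread is not shown by both. Of the genes with a range of at least 1 and embryo 2 apart, 23 were low in it and 4 high. The widest was Cmtr2, low in embryo 2 at 99.7, 35.3 and 153, an order that its other probe sets did not show. Jph2 followed at 134, 30 and 75.3. Among the 10 of widest range, only Rspo2, an enhancer of Wnt signalling, was high in embryo 2, at 251.8, 629.7 and 380.9. How the dissection and exact stage of each pad bear on these values was not tested.

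**Figure D5:**
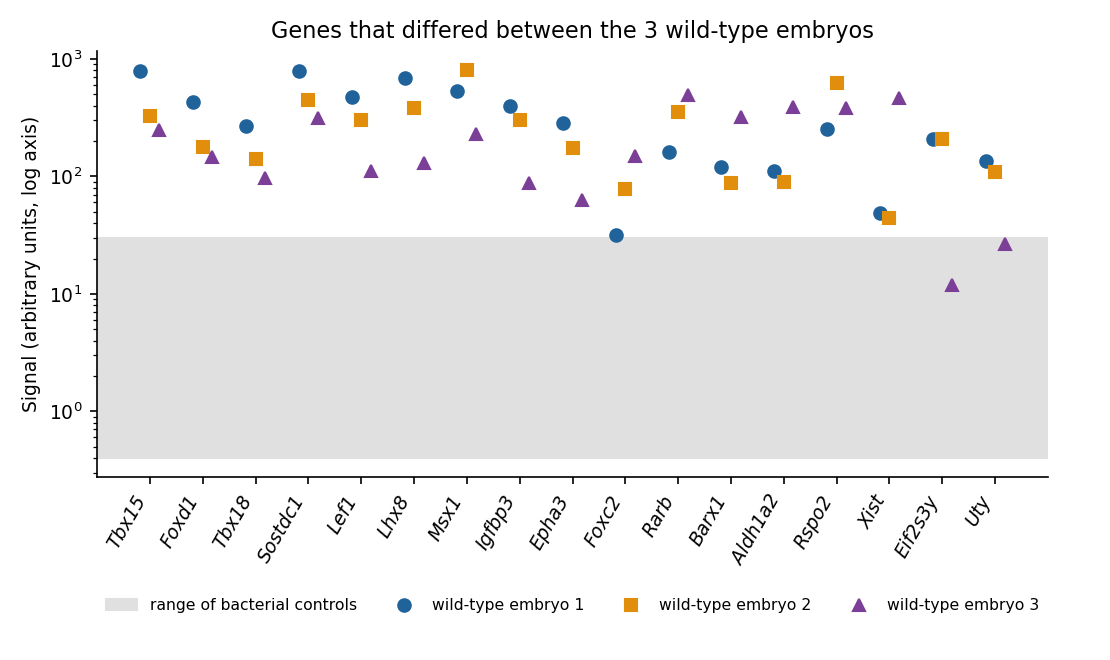
Signal (log axis, arbitrary units) of 17 genes that differed between the 3 wild-type embryos, with a circle for embryo 1, a square for embryo 2 and a triangle for embryo 3, and the bacterial control range in grey. Tbx15, Foxd1, Tbx18 and Sostdc1 are highest in embryo 1. Lef1, Lhx8, Msx1, Igfbp3 and Epha3 are lowest in embryo 3, and Xist and the Y-linked Eif2s3y and Uty set embryo 3 apart in opposite directions.

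Not every wide range was shared by a gene's probe sets. Ddr1, a collagen receptor, gave 972.1, 788.4 and 223.7 with its brightest probe set, while the other 7 did not show this order, for example 130.6, 176.6 and 185.6 with the second. Slc15a2, a peptide transporter, was at 116.2, 34.2 and 112.4 with 1 probe set and at 19.8, 49.4 and 42.6 with the other. Of 4956 genes with more than 1 probe set, the brightest exceeded the dimmest by a median of 3.1 times, and by over 10 times in 1043 genes (21%). Among the 100 brightest genes 68 had more than 1 probe set, and 30 of them (44.1%) differed over 10-fold. Rpl41 gave 16326 with its brightest probe set and 96.2 with its dimmest, and Tpt1 gave 14620 and 10.5. Without probe sets that gave background signal on any array, the median ratio was 2.2 over 3381 genes.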

How the data were processed

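RNA of whole E12.5 whisker pads was measured on one-colour Affymetrix MOE430A arrays, and 3 wild-type arrays were used here. The authors deposited 1 linear intensity per probe set and array. The labels do not state their summary method. Each array has a 2% trimmed mean of 250.1. These intensities were used as deposited, without further scaling. The authors' fold table was not used.

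The 64 AFFX probe sets were set apart, 27 bacterial ones as background and 18 hybridisation controls as a ladder. Of 22626 mouse probe sets, 20380 had 1 gene in the platform annotation, 691 several and 1555 were not listed. Symbols were updated to RefSeq (GRCm38.p6), which matched 20351 probe sets. A gene was represented by its probe set with the highest mean. Values are means ± SD over 3 embryos, and ranges use log2(signal + 16). No 2 arrays shared over 0.314% of their values.

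Members and gene lists (66) were chosen with earlier results of these data known. The genes named were taken from the 30 brightest, up to 6 bright and 6 background members of each list, the 10 most variable per embryo, Xist, Y-linked genes, Trps1 and bright genes with discordant probe sets. Not all genes that meet this rule are named. Named outside this rule, after their values were seen, were Rpl10a, Rps27, Rpl39, Vim, Tyms, Fos, Egr1, Dpt, Hoxa2, Hoxb7, Prdm1, Alx4, Grhl2, Dkk4, Edar, Krt8, Hbb-b2, Hba-a1, Alas2, Gata1, Kdr, Myod1, Omp, Afp, Wnt7b, Wnt4, Wnt6, Bmpr1a, Eda, Edaradd, Aldh1a2, Cyp26a1, Barx1 and Tbx18. Python 3.11.15, pandas 2.3.3, NumPy 2.4.6 and matplotlib 3.10.9 were used, and the programs were tested on simulated data. The number of arrays limits the precision. Alternatives covered normalization, averaging, the background limit, the offset, the choice of probe set and leaving out each embryo.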

Additional observations from a re-analysis of the deposited data

How the results depend on the processing

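No paired analysis was possible because only wild-type arrays were used. Leaving out 1 embryo at a time gave 15846 to 16118 probe sets and 9247 to 9404 genes above the bacterial controls, since 2 arrays are easier to pass than 3. It kept 95 to 98 of the 100 brightest genes, and left 26 to 28 lists of 66 with a median above percentile 50 of all genes (28 with all embryos). Leaving out 1 embryo lowered the number of genes with a log2 range of at least 1 to 32 without embryo 3, 119 without embryo 1 and 151 without embryo 2, by construction the range of 2 values in place of 3. The same number was 463 with an offset of 1 in place of 16 and 468 with a floor of 32, against 225, because the offset of 16 pulls the ranges of dim genes toward 0. Taking the median over a gene's probe sets gave 8673 genes above the controls. That setting kept 77 of the 100 brightest genes, and removing probe sets marked as shared between transcripts kept 76. That removal put thymosins beta at percentile 54.6, against 99.7. Normalization by quantiles or by medians moved 0 of the 66 list medians by more than the spread between embryos. By the same measure, 37 moved with the median over a gene's probe sets and 26 without shared probe sets. The median of the 3 arrays moved 12 and the geometric mean 7. Leaving out embryo 1, 2 or 3 moved 13, 15 or 20. The deposited arrays already shared a trimmed mean of 250.1 and had near-equal medians, so normalization had little to change. These counts therefore cannot compare normalization with the choice of probe set. Each move was set against the list's own spread between embryos, so the counts do not rank the sizes of the moves. The largest move was 0.371 percentile points with quantiles and 45.1 without shared probe sets.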
